A study of Mus musculus with 3 samples.

Results

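Keratin-associated proteins, the products of the Krtap genes, are small proteins that fill the space between the keratin filaments of a hair. The members were chosen by name alone: every measured feature whose symbol begins with Krtap was taken, which gave 55 of 19070 features, or 0.288%. They fall into 27 numbered subfamilies. In the cells kept here, 55 members had at least 1 unique molecular identifier (UMI, a counted transcript molecule) in the AN-GelMA library, 54 in the GelMA library and 55 in the untreated library. The member at 0 UMIs in GelMA was Krtap13.

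The study profiled single cells from splinted excisional wounds, 5 mm wide, in the back skin of C57BL/6J female mice wounded on postnatal day 50. Wounds of the AN-GelMA group were filled with 20 µL of gelatin methacryloyl, a light-cured gelatin hydrogel, that carried apoptotic neutrophils. Wounds of the GelMA group received the same volume of hydrogel without neutrophils, and UV light was applied for 1 min in both. The untreated wounds, titled as a sham group in the labels, received no hydrogel. Skin was taken on day 5 with 2 mm of the tissue around the wound, fixed for 24 h and digested with 5 mg/mL Liberase for 2 h at 37 °C. RNA was read with the 10x Flex chemistry, in which pairs of gene-specific probes are ligated on the transcripts of fixed cells. Each group is 1 library and the labels do not give the number of mice behind it, so that treatment, animal and piece of skin cannot be told apart. The files of the AN-GelMA library carry the word heat, which the labels do not explain. With 1 library per group no test between groups is possible. Values are given with exact 95% intervals that cover counting error only, and a difference is called where 2 CPM values (a gene's UMIs scaled by all UMIs in the sum, so that 10000 CPM is 1%) differ by 1.5 times or more.

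A hair is built from below. Dividing matrix cells at the base of the follicle leave the cycle, pass through the precortex and become the cortex, which is the bulk of the shaft, or the cuticle, the layer of scales around it. The inner root sheath moulds the shaft and has its own keratins. Hair keratins are made as cells enter the shaft, and the keratin-associated proteins follow and are cross-linked to them through cysteine. By protein composition the family is divided into high-sulphur, ultrahigh-sulphur and high glycine-tyrosine proteins. In human hair, proteins of the KAP5, KAP10 and KAP12 families, KAP17.1 and KAP24.1 are known from the cuticle, and KAP8.1 and KAP11.1 from the cortex. Mouse back skin carries follicles that cycle together, so a small piece of skin can hold growing follicles or resting ones.

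After filtering, 9131 cells of the AN-GelMA library, 10736 of the GelMA library and 5737 of the untreated library were kept, with medians of 1117, 1476 and 1115 UMIs per cell. Pairs of libraries shared 94 to 135 barcodes. Krtap genes were kept out of the clustering. Clusters named from fixed markers as hair matrix and precortex, hair shaft cortex, hair shaft cuticle or inner root sheath are called hair-forming below. They held 53 cells in AN-GelMA, 2695 in GelMA and 192 in untreated, so that the library holding most of the Krtap UMIs is also the library holding most of the hair-forming cells. Of the fixed markers, Krt85, Krt74 and Il11ra1 were not measured.

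Krtap RNA was found in quantity in the hair shaft of the GelMA wound, in few cells of the untreated wound, and in no hair-forming cell of the AN-GelMA wound. Over all kept cells the 55 genes together had 651 UMIs in AN-GelMA, 84695 in GelMA and 2417 in untreated. A count of 100 or more Krtap UMIs was reached by 0 AN-GelMA cells, 75 GelMA cells and 1 untreated cell. Of the 75 GelMA cells, 73 were in hair-forming clusters. In GelMA the cuticle cluster had 61567 Krtap UMIs in 211 cells, which is 12.1% of all its UMIs (12.04 to 12.23). A single cell held 42.9% of these UMIs, and without it the share was 7.47%. With every cell thinned to 500 UMIs it was 8.03%. The cortex cluster had 12288 in 240 cells, or 1.97% (1.93 to 2.00). This share depends on which cells are counted as cortex: it was 3.07% at Leiden resolution 2, 4.86% with a class set per cell from the markers, 5.24% with Krtap genes in the clustering and 5.52% with a minimum of 1000 UMIs per cell.

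Outside the shaft the level was low. In GelMA the hair matrix and precortex cluster had 519 Krtap UMIs in 1037 cells, 0.0255% of its UMIs, and the inner root sheath had 1861 in 1207 cells, 0.0760%, or 0.0562% without its highest cell. Outside the follicle, macrophages were at 0.0303%, endothelial cells at 0.0267% and skeletal muscle cells at 0.0171%. Together these 3 classes were at 0.0211%. In them 342 of 1638 cells, 20.9%, had at least 1 Krtap UMI at a median depth of 1024.5 UMIs, and the highest cell had 9. The matrix cells, with 30.8% of cells at a median of 1725 UMIs, were therefore read as background, and no Krtap expression is claimed for them. Above the 3 classes lay the inner root sheath, the outer root sheath, at 0.0593% or 0.0383% without its highest cell, and an unnamed cluster of 175 GelMA cells led by Adh6b and Krt84, at 0.0853%. Classes outside the follicle also lay above them, among others neutrophils at 0.0398% and pericytes or smooth muscle cells at 0.0391%. The outer root sheath without its highest cell was therefore not set apart from background, and no Krtap expression is claimed for it.

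**Figure D1:**
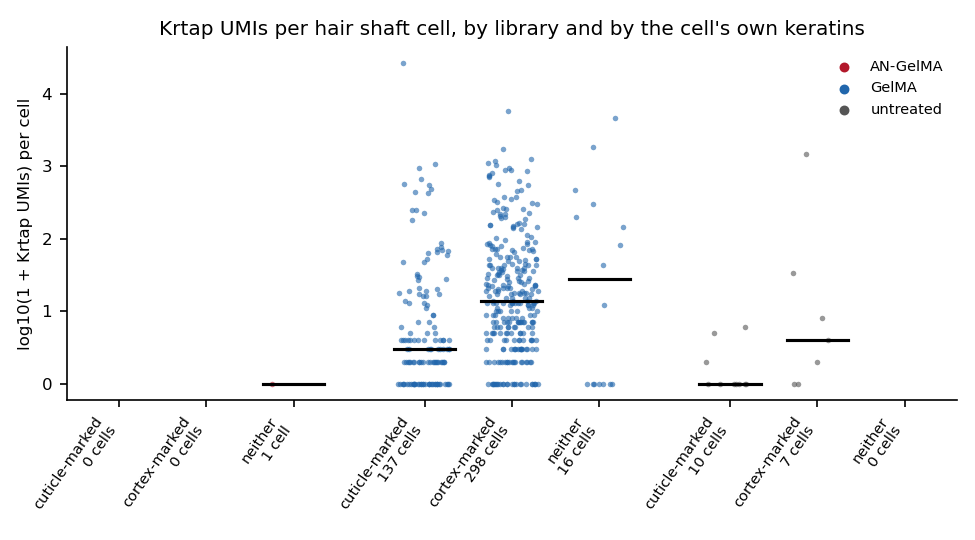
Krtap UMIs per cell of the 2 hair shaft clusters (vertical axis, log10 of 1 plus the count), by library and by the keratins of the cell itself. Each point is a cell and each bar a median; the cells of GelMA spread from 0 to 26396 UMIs, the AN-GelMA library has 1 cell at 0 and the untreated library 1 cell above 1000.

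The cuticle cluster was not pure, and the division used for single members was therefore made on the keratins of each cell. A shaft cell was called cuticle-marked where it had at least 3 UMIs of the cuticle markers (Krt32, Krt82, Krt39, Krt40, S100a3) and more of them than of the cortex markers (Krt31, Krt33a, Krt33b, Krt34, Krt36, Krt81, Krt83, Krt86, Gprc5d, Dsg4), and cortex-marked in the reverse case. In GelMA the cuticle cluster held 134 cuticle-marked cells, 63 cortex-marked cells and 14 that met neither condition, and the cortex cluster held 3, 235 and 2. This division was chosen after the data were seen. The 137 cuticle-marked cells had 33626 Krtap UMIs, or 9.49% of their UMIs, of which 26396 lay in 1 cell. The 298 cortex-marked cells had 32538, or 4.37%, with at most 5714 in 1 cell. The median cell told the other order, with 2 Krtap UMIs in cuticle-marked cells and 13 in cortex-marked cells. The 16 cells that met neither condition had 7691 Krtap UMIs, or 23.3% of their UMIs, with 4592 in 1 cell. They entered none of the ratios between marked cells.

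The change of division turned the balance of the family. Between the clusters 40 of 53 compared members were higher in cuticle and 5 lower, where 19.6% of all compared genes were higher and 26.6% lower. Between marked cells 15 members were higher in cuticle-marked cells and 29 lower, against 17.5% and 30.1% of all genes. Without the 1 cell of 26396 Krtap UMIs the counts were 7 and 37, against 21.7% and 25.2%. The statements on single members below are therefore given for marked cells, with and without that cell where it matters.

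In the division by the cells' own keratins, the members lower in cuticle-marked than in cortex-marked cells came from several high-sulphur families and from the high glycine-tyrosine proteins. Krtap8-1, a glycine- and tyrosine-rich protein, was the most widely detected member: it had 333 UMIs in 23 of 137 cuticle-marked cells, 16.8%, and 3575 UMIs in 226 of 298 cortex-marked cells, 75.8%, at median depths of 1898 and 2044 UMIs per cell. In macrophages, endothelial cells and muscle cells together, at a median of 1024.5 UMIs, 2.14% of cells had a UMI of it. Its log2 ratio of cuticle-marked over cortex-marked CPM was -2.35 (-2.52 to -2.19). Krtap11-1, a high-sulphur protein of the cortex in human hair, had 16 UMIs in 4 cuticle-marked cells and 878 UMIs in 152 cortex-marked cells, a log2 ratio of -4.71 (-5.52 to -3.999).

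Krtap13-1 had 1 UMI in cuticle-marked cells and 266 in cortex-marked cells, with a log2 ratio of -6.98 and a wide interval (-12.29 to -4.49). Krtap27-1 had 6 and 183 UMIs, a log2 ratio of -3.86 (-5.32 to -2.71), and its highest cell had 10 UMIs, so its counts came from many cells at a low level. Both are high-sulphur members encoded on chromosome 16. Krtap15 was at -2.93, Krtap14 at -2.51, Krtap3-1 at -2.34, Krtap9-3 at -2.19, Krtap7-1 at -1.92 and Krtap22-2 at -1.88. Leaving out the highest cell moved these ratios little, for example to -3.70 for Krtap27-1 and to -2.77 for Krtap15. Between the clusters only part of these members were called lower in cuticle: Krtap11-1 was at -5.31, Krtap13-1 at -3.88 and Krtap27-1 at -1.89. Krtap8-1 was at -0.52 and Krtap15 at -0.47, within 1.5 times, while Krtap3-1 was at 0.48, Krtap22-2 at 0.35 and Krtap9-3, called higher in cuticle, at 0.75.

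Of the 14 compared high glycine-tyrosine members, 0 were higher in cuticle-marked cells, 11 were lower and 3 lay within 1.5 times, against the 17.5% and 30.1% of all genes given above. Between the clusters the same 14 turned round, with 12 higher in cuticle, 0 lower and 2 within 1.5 times, with and without the highest cell. The 3 within 1.5 times in marked cells were Krtap6-2, Krtap19-5 and, near the limit, Krtap19-1. Krtap20-2 had too few UMIs to compare. Krtap19-5, with 62.9% glycine plus tyrosine, had 507 UMIs in 14 cuticle-marked cells and 1476 UMIs in 76 cortex-marked cells. Its log2 ratio was -0.47 (-0.62 to -0.32). The high-sulphur group is here the remainder of the division by composition given below. Of its 20 compared members 5 were higher and 14 lower in marked cells. Between the clusters 10 were higher in cuticle and 4 lower, against 19.6% and 26.6% of all genes.

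Krtap24-1, Krtap29-1 and Krtap26-1 were higher in cuticle by cluster, by the cells' own keratins and without the highest cell. By cluster their log2 ratios were 7.52, 5.28 and 4.11. In marked cells, Krtap24-1 had 284 UMIs in 61 of 137 cuticle-marked cells, 44.5%, and 14 UMIs in 5 of 298 cortex-marked cells, 1.68%. In macrophages, endothelial cells and muscle cells together 0.122% of cells had a UMI of it. Its log2 ratio was 5.41 (4.64 to 6.30), and 5.44 without the highest cell. Krtap29-1 had 118 UMIs in cuticle-marked cells and 9 in cortex-marked cells, a log2 ratio of 4.78 (3.81 to 5.95). Krtap26-1 had 83 and 7 UMIs, a log2 ratio of 4.64 (3.53 to 6.00). These 3 are high-sulphur proteins with less cysteine than the classical cuticle families, between 8.47% and 14.6% of residues.

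Krtap16-1, Krtap12-1 and Krtap17-1 also leaned to the cuticle, with larger parts of their counts in the highest cell. Krtap16-1 had 624 UMIs in cuticle-marked cells and 128 in cortex-marked cells, a log2 ratio of 3.36, or 2.66 without that cell. Krtap12-1 had 367 and 46 UMIs, a log2 ratio of 4.07, or 2.62 without it. Krtap17-1, an ultrahigh-sulphur protein, had 2725 UMIs in 42 cuticle-marked cells and 868 UMIs in 32 cortex-marked cells, a log2 ratio of 2.72, or 1.03 without it. Krtap9-1 completed the 7 members that were higher without the highest cell, at 1.53, but 44 of its 47 UMIs in cuticle-marked cells lay in 1 cell, against 38 UMIs in 13 cortex-marked cells, so its value rests on that cell.

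**Figure D2:**
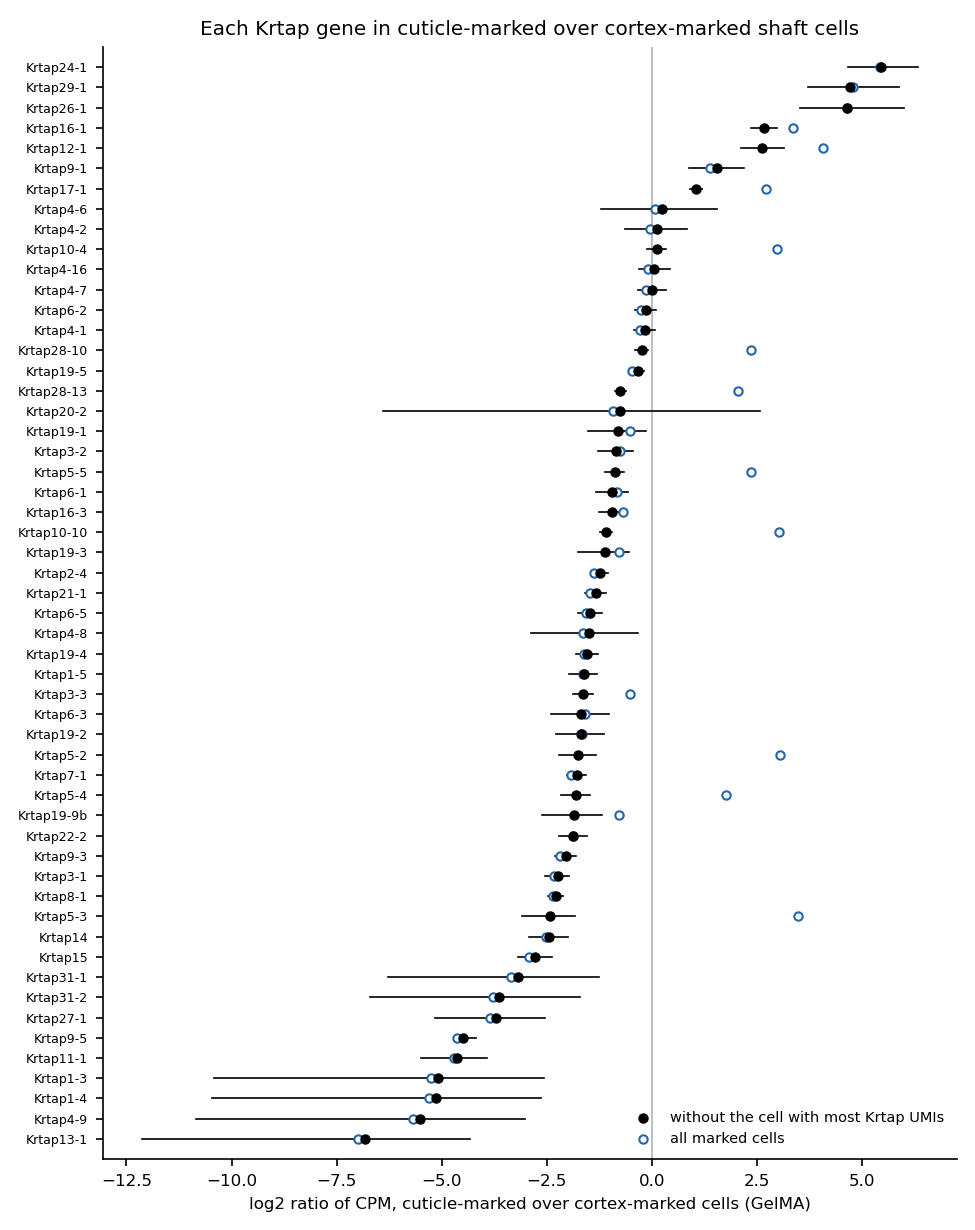
Log2 ratio of CPM in cuticle-marked over cortex-marked GelMA shaft cells (horizontal axis) for each compared Krtap gene (vertical axis). Open points use all marked cells; filled points with 95% counting intervals leave out the cell of 26396 Krtap UMIs. Krtap24-1, Krtap29-1 and Krtap26-1 stay above 4 in both, while Krtap28, Krtap10 and Krtap5 genes move to the left.

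The members with the most UMIs, of subfamilies 28, 10 and 5, could not be placed in a layer in this way. Krtap28-13, rich in both cysteine (42.8% of residues) and glycine plus tyrosine (42.0%), was the highest member with 13769 UMIs over the 3 libraries. In GelMA shaft cells it had 4961 UMIs in cuticle-marked cells and 2542 in cortex-marked cells. It had 4196 in the cells that met neither condition, which entered no ratio. Its log2 ratio of cuticle-marked over cortex-marked cells was 2.04 with all cells and -0.75 without the highest cell. For Krtap10-10 the 2 values were 3.02 and -1.09, for Krtap5-5 2.34 and -0.89, for Krtap5-2 3.05 and -1.75, and for Krtap5-3 3.48 and -2.43. The cortex-marked cell with the most Krtap UMIs stayed in both values. It held 1818 of the 2542 cortex-marked Krtap28-13 UMIs, and 1283 UMIs of Krtap10-10. It was called on 3 UMIs of the cortex markers against 1 of the cuticle markers. Ratios without it were not computed, so the signs of these values are not settled. Among cells with a moderate Krtap count, 10 to 99 UMIs, the picture differed again. There Krtap28-13 had 32 UMIs in 5 of 30 cuticle-marked cells and 14 in 9 of 119 cortex-marked cells. Its log2 ratio was 3.05 (2.10 to 4.07). Krtap28-10 had 47 UMIs in 6 cuticle-marked cells and 10 in 9 cortex-marked cells, a log2 ratio of 4.09. Krtap10-10 had 45 and 14 UMIs, a log2 ratio of 3.54, and Krtap10-4 21 and 4, a log2 ratio of 4.25. In that range 10 of 30 compared members were higher in cuticle-marked cells and 20 lower, against 20.6% and 40.9% of all genes.

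Few cells carried these genes. In GelMA, 10 cells had 50% or more of their UMIs from Krtap genes. They held 47945 Krtap UMIs, 56.6% of the library's total, and had between 258 and 1895 detected genes. Their hair keratin counts were low, from 0 to 43 UMIs with a median of 13.5, so their layer is set by few counts. These cells held 91.7% of the library's Krtap10 UMIs, 89.0% of Krtap5, 84.7% of Krtap28, 73.1% of Krtap17 and 68.1% of Krtap12. They held 2.91% of Krtap8, 0.0994% of Krtap11 and 0 UMIs of Krtap13 and Krtap27.

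The highest cell had 26396 Krtap UMIs among 36517, spread over 39 members and led by Krtap10-10 with 8689, Krtap28-13 with 4318, Krtap28-10 with 2712 and Krtap5-5 with 1976. The untreated library had 1 cell of the same kind, with 1483 Krtap UMIs among 2233, led by Krtap10-10 with 308, Krtap28-13 with 279, Krtap28-10 with 150 and Krtap17-1 with 136. It had 7 hair keratin UMIs. The leading 3 members of both cells were the same. Another GelMA cell of this kind lay in the Langerhans cell cluster, with 3572 Krtap UMIs of the 3604 in that cluster. It had 19 UMIs of Langerhans markers and 28 of hair keratins, and whether it is 2 cells under 1 barcode was not tested.

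Members differed in the Krtap load of the cells in which they were found. Cells were ordered by their summed Krtap UMIs, so the ranges below are made from the same counts and only the mix of members within a range is described. In the 101 cortex-marked cells with 1 to 9 Krtap UMIs, Krtap8-1 had 165 of 402 Krtap UMIs, Krtap11-1 had 112 and Krtap7-1 had 40. In the 119 cells with 10 to 99, Krtap8-1 was found in 114 cells, Krtap7-1 in 94 and Krtap11-1 in 81, and Krtap15, Krtap3-1 and Krtap9-3 had 244, 208 and 190 UMIs.

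In the 45 cortex-marked cells with 100 to under 1000 Krtap UMIs Krtap8-1 was again highest with 1618 UMIs, followed by Krtap19-5 with 1095, Krtap9-3 with 1076, Krtap2-4 with 1068 and Krtap3-1 with 859. Krtap19-5 and Krtap2-4 had 2 UMIs each in the 101 cells of the lowest range. Krtap11-1 was found in 20 of these 45 cells, against 81 of the 119 cells of the range below. Its share of Krtap UMIs was 27.9%, 11.8% and 1.23% over the 3 ranges in ascending order.

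In cuticle-marked cells Krtap24-1 had the most UMIs at the low end. It had 55 of 135 Krtap UMIs in the 57 cells with 1 to 9 Krtap UMIs, and 174 UMIs in 25 of the 30 cells with 10 to 99. In those 30 cells Krtap17-1 had 259 UMIs in 26 cells and Krtap16-1 had 206 UMIs in 20 cells. In the 11 cells with 100 to under 1000 the leading members were Krtap28-13 with 520 UMIs, Krtap17-1 with 443 and Krtap28-10 with 363, and Krtap24-1 was found in 3 of them. These 11 cells also held Krtap8-1, with 263 UMIs in 7 cells, and Krtap19-5, with 339 UMIs in 6 cells.

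**Figure D3:**
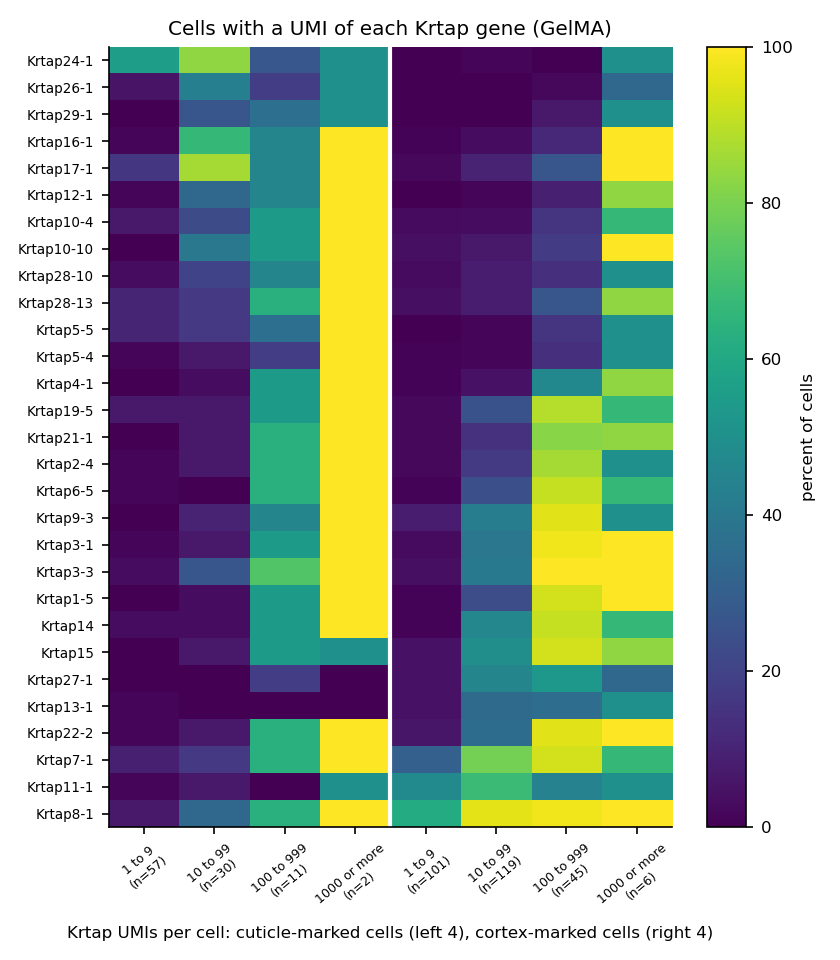
Percent of GelMA shaft cells with at least 1 UMI of each Krtap gene (colour), by the summed Krtap UMIs of the cell (columns), for cuticle-marked cells on the left and cortex-marked cells on the right. Krtap24-1 and Krtap8-1 are found from the lowest range on, Krtap19-5 and Krtap2-4 mainly from 100 UMIs on.

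The keratins and transcription factors of the same cells, which were not used to order them, changed along with the Krtap load. Krt35, the type I hair keratin of the matrix and early shaft, was at 7182, 4009, 747, 51.8 and 99.8 CPM of non-Krtap UMIs in cortex-marked cells with 0, 1 to 9, 10 to 99, 100 to under 1000 and 1000 or more Krtap UMIs. Lef1, the transcription factor through which WNT signals act in the matrix, was at 2647, 2349, 1224, 135 and 150. Krt34, a keratin of the upper cortex, ran the other way at 38.9, 339, 3567, 19328 and 19510. Krt81, a type II hair keratin, was at 97.3, 1029, 7790, 15327 and 44958, and Krt31 stayed between 1966 and 9530.

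The cuticle-marked cells had an order of their own. Krt32, a type I keratin of the cuticle and one of the genes that define these cells, was at 6286, 5386, 9083, 528 and 93.3 CPM over the 5 ranges, and Krt40, another of them, at 14.6, 71.6, 7153, 16127 and 747. Hoxc13, a homeobox factor that acts on hair keratin genes, was at 2748, 2815, 2082, 58.6 and 93.3. Krt39, also one of the cuticle markers, did not separate the marked groups. It had 608 UMIs in cuticle-marked and 1280 in cortex-marked cells, a log2 ratio of -0.0027. At 100 to under 1000 Krtap UMIs it was at 11201 CPM in cuticle-marked and 8726 CPM in cortex-marked cells. The number of detected genes differed along the load as well: cuticle-marked cells had medians of 1150, 1354, 1026, 557 and 1166 genes, and cortex-marked cells of 1134, 1370, 1252, 723 and 760.5. The ranges of 1000 or more rest on 2 cuticle-marked and 6 cortex-marked cells, and the part that RNA content plays in these values was not tested.

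**Figure D4:**
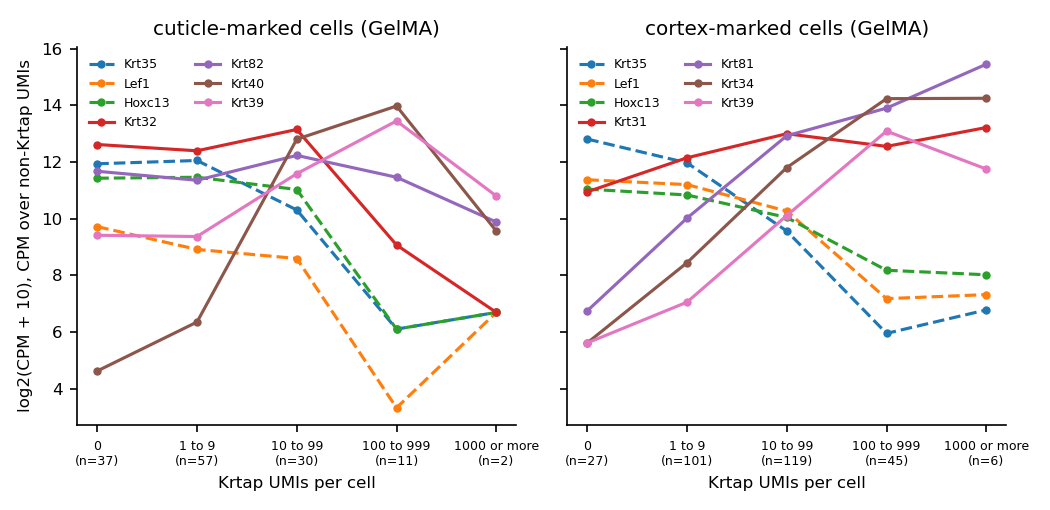
Level of hair keratins and transcription factors (vertical axis, log2 of CPM over non-Krtap UMIs plus 10) in GelMA shaft cells by the summed Krtap UMIs of the cell (horizontal axis, number of cells below). Krt35, Lef1 and Hoxc13, drawn with broken lines, are lower at a high Krtap load in both panels; Krt34 and Krt81 are higher in cortex-marked cells.

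Enzymes that modify hair proteins also differed between marked cells. Padi3, which converts arginine in hair proteins, had 530 UMIs in cuticle-marked cells and 121 in cortex-marked cells, a log2 ratio of 3.20. Tgm1, a transglutaminase, had 392 and 48 UMIs, a log2 ratio of 4.10, and Tgm3 had 23 and 224, a log2 ratio of -2.21. Foxn1, a transcription factor of the shaft, was at -0.76, and Hoxc13 at 0.84. Padi3 and Tgm1 were not particular to the cuticle among the GelMA clusters. Padi3 was at 2412 CPM in the inner root sheath and 1159 CPM in the cuticle cluster, and Tgm1 at 923 and 826 CPM.

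Promoters of 5 members are printed, those that carry this account: Krtap24-1 and Krtap17-1, higher in cuticle-marked cells, Krtap28-13, the member with the most UMIs, and Krtap11-1 and Krtap8-1, lower in cuticle-marked cells. Each is the 250 bases before the annotated start, 5′ to 3′ on the gene's strand, from RefSeq on GRCm38.p6, a build other than the GRCm39 of the counts. Capitals mark matches on either strand to TATAAA (the TATA box), CTTTGA (a core bound by LEF and TCF factors), and TCGTAAA or CAATAAA (sequences bound by HOX13-type factors).
Krtap24-1, chr16:88612280-88612529, minus strand: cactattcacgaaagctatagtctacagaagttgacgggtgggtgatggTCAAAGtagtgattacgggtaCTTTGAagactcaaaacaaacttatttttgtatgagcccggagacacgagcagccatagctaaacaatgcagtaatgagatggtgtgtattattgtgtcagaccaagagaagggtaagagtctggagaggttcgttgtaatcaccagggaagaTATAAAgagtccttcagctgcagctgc
Krtap17-1, chr11:99993995-99994244, minus strand: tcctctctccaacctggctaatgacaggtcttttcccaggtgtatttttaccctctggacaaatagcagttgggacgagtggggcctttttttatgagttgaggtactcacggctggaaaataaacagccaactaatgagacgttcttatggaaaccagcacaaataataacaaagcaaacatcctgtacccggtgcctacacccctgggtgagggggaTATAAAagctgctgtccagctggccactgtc
Krtap28-13, chr1:83060680-83060929, plus strand: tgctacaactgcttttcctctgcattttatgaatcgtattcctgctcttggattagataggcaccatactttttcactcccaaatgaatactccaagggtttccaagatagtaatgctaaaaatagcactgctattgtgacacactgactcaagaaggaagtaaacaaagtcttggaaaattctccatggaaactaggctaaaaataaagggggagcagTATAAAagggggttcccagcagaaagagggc
Krtap11-1, chr16:89571184-89571433, minus strand: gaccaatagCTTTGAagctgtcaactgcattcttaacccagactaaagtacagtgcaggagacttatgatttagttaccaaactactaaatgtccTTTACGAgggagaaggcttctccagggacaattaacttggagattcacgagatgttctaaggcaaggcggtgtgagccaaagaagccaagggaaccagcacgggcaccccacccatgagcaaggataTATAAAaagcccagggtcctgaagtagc
Krtap8-1, chr16:89487953-89488202, minus strand: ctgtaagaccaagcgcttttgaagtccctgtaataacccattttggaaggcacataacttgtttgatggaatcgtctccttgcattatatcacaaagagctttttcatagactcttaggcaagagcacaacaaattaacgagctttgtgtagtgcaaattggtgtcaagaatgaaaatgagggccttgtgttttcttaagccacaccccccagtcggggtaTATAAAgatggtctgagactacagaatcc

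Each of the 5 has a TATAAA on its own strand, beginning 27 to 31 bases before the start. Windows were found for 49 of the 55 members and for 27025 genes in all. TATAAA was in 39 Krtap windows, 79.6%, against 13.0% of all windows. Within 20 to 40 bases of the start and on the gene's strand it was in 29, 59.2%, against 2.22% of all. CTTTGA was in 12 Krtap windows, 24.5%, against 3797 of all 27025. TCGTAAA was in 1, 2.04%, against 0.492%, and CAATAAA in 0, against 4.42%. A match is a run of letters in this window and says nothing of binding.

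By position, 24 members lie on chromosome 16, 22 on chromosome 11, 4 on chromosome 7, 3 on chromosome 10 and 2 on chromosome 1. The clusters on chromosomes 7, 10 and 1 are the Krtap5, the Krtap10 and Krtap12, and the Krtap28 genes. These subfamilies were concentrated in the Krtap-dominated cells, but so was Krtap17 on chromosome 11, with 73.1% of its GelMA UMIs there against 68.1% for Krtap12. Of the genes on chromosomes 7, 10 and 1 only Krtap12-1 was called higher in cuticle-marked cells without the highest cell. The members that leaned to the cuticle lie on chromosomes 16 (Krtap24-1, Krtap26-1), 11 (Krtap29-1, Krtap16-1, Krtap17-1 and, by 1 cell, Krtap9-1) and 10 (Krtap12-1), beside genes that leaned to the cortex on the first 2 of these.

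By composition 15 members were counted as ultrahigh-sulphur (cysteine at least 30%) and 15 as high glycine-tyrosine (glycine plus tyrosine at least 35%). A further 4 were rich in both: Krtap28-10, Krtap28-13, Krtap5-2 and Krtap5-3. The 21 under both limits were counted as high-sulphur. That group is a remainder without a cysteine minimum, and its member with the most UMIs was Krtap7-1. Krtap1-3 lay just inside the cysteine limit and Krtap2-4 at 29.8% just outside it. In hair-forming cells of GelMA the high-sulphur, ultrahigh-sulphur, high glycine-tyrosine and doubly rich groups held 18.9%, 34.5%, 17.3% and 29.3% of Krtap UMIs. In untreated, where 1 cell held 95.2% of them, they held 7.71%, 45.2%, 4.30% and 42.8%. By subfamily, Krtap28 held 24.0%, Krtap10 18.9%, Krtap5 13.0%, Krtap8 5.38%, Krtap17 5.31%, Krtap19 5.27%, Krtap3 4.52% and Krtap6 3.02% in GelMA. The highest GelMA cell alone had 10312 of the 14417 Krtap10 UMIs, 6079 of the 9901 Krtap5 UMIs and 7030 of the 18264 Krtap28 UMIs. Without it these 3 subfamilies held 38.5% of GelMA Krtap UMIs, against 55.9% with it. Counts of different genes depend on their probes and are not scaled to length, so these shares compare probe counts.

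By breadth, 12 members were found in 20 to 57 cells of the 3 libraries, 25 in 68 to 196 cells and 18 in 200 to 731 cells. The narrowest were Krtap20-2, Krtap13 and Krtap4-8. Breadth and amount were not the same: Krtap10-4 had 3002 UMIs in 139 cells, while Krtap7-1 had 2133 UMIs in 558 cells. Some members are near copies of another, so that a probe may read both. The proteins of Krtap3-2 and Krtap3-3 are identical, and those of Krtap6-1 and Krtap6-5, Krtap31-1 and Krtap31-2, Krtap4-1 and Krtap4-2, and Krtap10-10 and Krtap10-4 share 92.8% of residues or more. Values of these 10 members are uncertain as values of single genes.

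Between libraries the comparison was made within hair-forming cells, for members with at least 20 UMIs over both libraries, and the 3 comparisons share libraries. In AN-GelMA the 53 hair-forming cells had 0 Krtap UMIs among 98499, which allows a share of up to 0.00375%, against 76235 UMIs and 1.36% (1.35 to 1.37) in the 2695 cells of GelMA. Taken as 3 UMIs, the AN-GelMA sum gave a log2 ratio of -8.80, and the upper end of its counting interval was -8.50. Of 53 compared members, 36 were lower in AN-GelMA at their bound and 0 higher, where 19.3% of all compared genes were lower and 29.0% higher. The other 17 could not be called at this depth, and with 0 UMIs in AN-GelMA none of the 53 could be called higher. Of the 53 AN-GelMA cells, 47 were matrix and precortex cells, 5 inner root sheath and 1 cuticle, so no cortex and next to no cuticle was there to be compared.

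GelMA over untreated rested on 1 cell as well. Hair-forming cells had 76235 Krtap UMIs in GelMA and 1557 in untreated, 1.36% and 0.605% (0.575 to 0.636), a log2 ratio of 1.17 (1.09 to 1.24). Of 53 compared members 38 were higher in GelMA and 1, Krtap12-1, was lower, against 20.8% and 18.9% of all genes. The median log2 ratio was 1.84 over the members, with 18 at a lower bound because untreated had 0 UMIs, and -0.06 over all genes. Without the highest cell of each library the sum was 0.893% in GelMA and 0.0290% in untreated, a log2 ratio of 4.94, and 44 members were higher and 0 lower, against 20.9% and 19.0%.

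Several members had few UMIs in untreated. Krtap19-5 had 2085 UMIs in GelMA hair-forming cells and 1 in untreated, a log2 ratio of 6.58 (4.10 to 11.88). Krtap2-4 had 1576 and 1, a log2 ratio of 6.17 (3.69 to 11.48), Krtap15 1018 and 1, Krtap4-1 776 and 1, and Krtap9-3 1627 and 3, a log2 ratio of 4.64 (3.09 to 6.91). Krtap8-1 had 4100 UMIs in 347 GelMA cells and 25 UMIs in 6 untreated cells, a log2 ratio of 2.91 (2.35 to 3.54). Of the members concentrated in the Krtap-dominated cells, Krtap28-13 had 12041 and 283 UMIs, a log2 ratio of 0.96 (0.79 to 1.14), and Krtap5-3 2000 and 128, a log2 ratio of -0.48 (-0.74 to -0.21). Of the 283 untreated Krtap28-13 UMIs, 279 came from the highest cell.

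Cell makeup moved with this comparison. GelMA had 211 cells in the cuticle cluster and 240 in the cortex cluster, and untreated had 12 and 5. Within the matrix and precortex cluster alone 7 members could be compared and 0 were called either way, against 25.5% of all genes higher and 13.6% lower. Of these 7, 5 had 0 UMIs in untreated and were at a bound, which left little room for a call. The Krtap sum of this cluster was at 255 CPM in GelMA and 40.5 in untreated, a log2 ratio of 2.65 (1.52 to 4.11), on 6 untreated UMIs. Within the inner root sheath 23 could be compared, with 5 higher and 2 lower, against 16.9% and 24.4%. Of these 23, 17 had 0 UMIs in untreated. The Krtap sum there was at 760 and 181 CPM, a log2 ratio of 2.07 (1.32 to 2.95), on 14 untreated UMIs. In macrophages, endothelial cells and muscle cells together the Krtap sum was at 211 CPM in GelMA and 27.3 in untreated. The part of cell makeup in the sums was not tested.

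AN-GelMA over untreated could be compared for 12 members, all 12 lower in AN-GelMA at their bound. All 12 had 0 UMIs in AN-GelMA and reached the minimum of 20 UMIs through untreated alone. With 3 UMIs taken for the 0, any such member is called lower at these depths. The 12 calls were therefore fixed by the minimum and cannot be weighed against all genes, of which 19.5% were lower and 19.1% higher. Without the highest untreated cell 1 member, Krtap8-1, could be compared, and it was lower in AN-GelMA at its bound, a call fixed likewise.

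Other genes of hair formation were read from 5 lists. In hair-forming cells of AN-GelMA over GelMA, 9 of 9 type I hair keratins and 5 of 6 type II hair keratins were lower and 0 higher, against 19.3% of all genes lower and 29.0% higher. The AN-GelMA cells include no cortex cell and 1 cuticle cell. Krt35, for example, had a level of 264 CPM in AN-GelMA against 1153 CPM in GelMA, and Krt31 had 0 UMIs in AN-GelMA and 4616 in GelMA. Of 8 inner root sheath keratins with trichohyalin 6 were lower, and of 9 junction, calcium and cross-linking proteins 8 were lower and 1 higher. Of 10 transcription factors 4 were lower and 1, Vdr, was higher. Lef1 had 812 CPM in AN-GelMA against 814 CPM in GelMA, while Prdm1 was at 10.2 and 454 and Foxn1 at 30.5 and 324.

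For GelMA over untreated, 8 of 9 type I and 4 of 6 type II hair keratins were higher, with 5 of 8 inner root sheath genes, 7 of 9 junction, calcium and cross-linking genes and 4 of 10 transcription factors, and 0 genes of these lists were lower, against 20.8% of all genes higher and 18.9% lower. The cell makeup given above, 211 cuticle and 240 cortex cells in GelMA and 12 and 5 in untreated, differed here too. Krt34 was at 645 CPM in GelMA and 54.4 in untreated, and Krt35 at 1153 and 1096. For AN-GelMA over untreated, where fewer genes could be compared, the lists in the same order had 4 of 4, 5 of 5, 6 of 8, 6 of 6 and 3 of 8 genes lower, against 19.5% of all genes. A gene at 0 UMIs in AN-GelMA reached the minimum through untreated alone and could only be called lower. AN-GelMA had 1 cuticle and 0 cortex cells and untreated 12 and 5, and the part of this makeup was not tested.

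**Figure D5:**
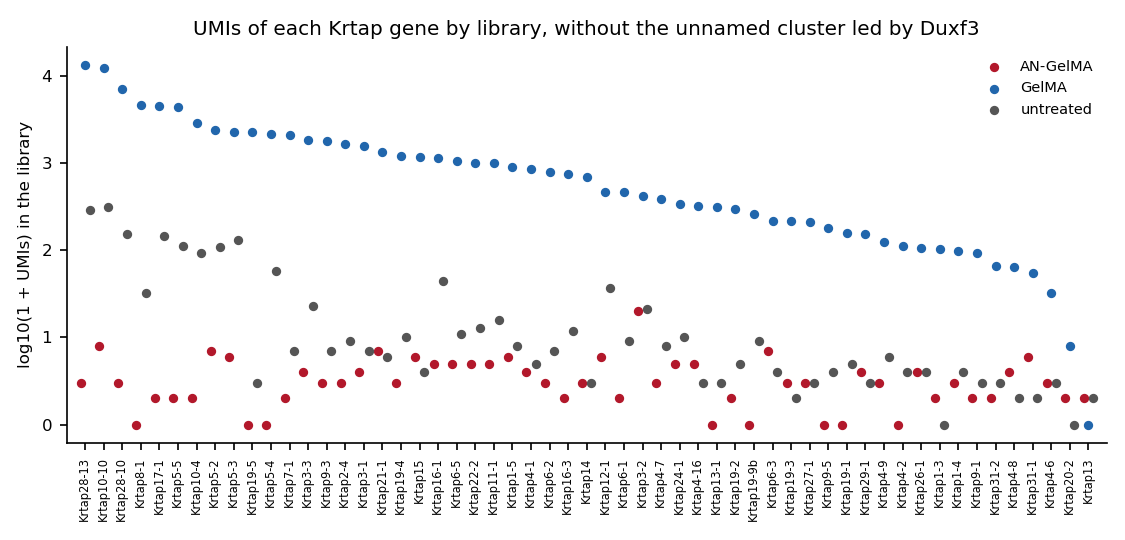
UMIs of each Krtap gene over the kept cells of a library (vertical axis, log10 of 1 plus the count), without an unnamed cluster led by Duxf3; genes run from most to fewest UMIs in GelMA. For 54 genes the GelMA point lies above the other 2 libraries; Krtap13 is at 0 in GelMA.

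Over all kept cells, where the number of hair-forming cells enters directly, 53 of 53 compared members were lower in AN-GelMA than in GelMA, against 16.3% of all genes. Of 54 members compared between GelMA and untreated, 53 were higher in GelMA and 1, Krtap13, lower, against 10.8% and 32.0%. In AN-GelMA over untreated 43 of 46 were lower and 0 higher, against 25.4% and 0.87% of all genes. Most Krtap UMIs of AN-GelMA came from the unnamed cluster led by Duxf3, with 110 cells and 502 of the 651 UMIs. In untreated it had 177 cells and 673 UMIs, and in GelMA 8 cells and 25 UMIs. Krtap genes were 0.277%, 0.299% and 0.249% of its UMIs in AN-GelMA, GelMA and untreated, spread over many members, and its highest cell had 98 Krtap UMIs among 30640 UMIs and 13439 detected genes. Without this cluster AN-GelMA had 149 Krtap UMIs and untreated 1744, and 14 of 14 compared members were lower in AN-GelMA than in untreated and 0 higher, against 7.57% and 2.46% of all genes. A single untreated cell held 1483 of these 1744 UMIs, 85.0%, and 261 remained without it. That cell also entered the 43 of 46 above, and neither comparison was made without it. Krtap13 had 29 of its 31 UMIs in the cluster led by Duxf3.

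The genes whose levels ran most closely with Krtap28-13, over 76 sums of 50 cells or more by cluster and library, were Krtap28-10 with a Pearson correlation of log CPM of 0.946, Krtap10-10 with 0.937, Krtap5-5 with 0.906 and Krtap17-1 with 0.894. Krt86, a type II keratin of the cortex, followed with 0.880, then Krtap10-4, Krtap7-1, Krtap5-4, Krtap8-1 and Krtap16-1 with 0.866 to 0.849. Outside the family Krt86 was followed by Vsig8 with 0.849 and Krt81 with 0.832. The sums share libraries, and thereby free RNA, and the correlation rests on the few sums that hold shaft cells.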

How the data were processed

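The authors deposited raw UMI counts for every gene in every barcode. The file headers name Cell Ranger 10.0.0 and the submitters' processing notes name GRCm39. The sources used here name no probe set version.

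The members and lists were chosen with earlier results of these data known. Depth was 14156692, 21613482 and 8945496 UMIs in the AN-GelMA, GelMA and untreated libraries. Barcodes were kept from 400 UMIs (the lowest had 487) and 250 genes upward, if mitochondrial UMIs did not exceed 10%. Scrublet called 0 doublets in each library, so the 5% of cells with the highest scores were removed in its place. With Scanpy 1.11.5, NumPy 2.4.6, SciPy 1.17.1 and pandas 2.3.3, each cell was brought to 10000 and logged, 2000 variable genes other than Krtap were scaled to at most 10, and 30 components and 15 neighbours were divided by Leiden at resolution 1, without integration. Of 33 clusters 31 were named from 25 marker lists. A name needed a mean log2 marker level, over the 25th percentile of clusters, of at least 1.8, a lead of 0.5 over the next list and 3 markers, and no more markers of another class among 10 leading genes; a marker counted at 50 CPM and 4 times that percentile.

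UMIs were summed by class and library and divided by all UMIs of that sum (CPM). A member was compared where both sums together held 20 UMIs and, between libraries, each class held 50 cells. A count of 0 was taken as 3 UMIs and gave a bound, called only in its own direction. Intervals are exact (Poisson, binomial) and cover counting error only. The calling procedure was tested on simulated sums for GelMA over untreated with Poisson counting error only. These sums had no spread between cells, so they say nothing of the weight of single cells. Members named are the 20 with the most UMIs, the highest of each subfamily with over 100 UMIs, up to 10 per direction and comparison, and the 10 genes most like Krtap28-13. Others, chiefly those set beside them in marked cells, and the division by keratins, were chosen after their values were seen. Composition came from GENCODE M21 coding sequences, since no RefSeq protein table was at hand, for all 55 members. Alternatives are given at the close.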

Additional observations from a re-analysis of the deposited data

Results flagged for a closer look

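Krtap RNA was also present in barcodes that the filters on genes and mitochondrial UMIs removed. In GelMA 147 such barcodes held 7960 Krtap UMIs, while those removed from AN-GelMA held 1 and from untreated 2. Of the 147, 28 were removed for having under 250 genes and 121 for mitochondrial UMIs, with overlap. They stand out because they lie outside the cells compared in the report and are above the control library, and the GelMA hair-forming share with them kept is given with the other alternatives.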

How the results depend on the processing

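Each group is 1 library, so no library could be left out, and the values below are descriptions. No paired analysis was possible because a single library stands for each treatment. The values compared are the Krtap percent of UMIs in hair-forming cells (0 in AN-GelMA, 1.36 in GelMA, 0.605 in untreated), in the GelMA cuticle cluster (12.1) and cortex cluster (1.97), the percent of GelMA Krtap UMIs from high glycine-tyrosine members (17.3) and from Krtap5, Krtap10 and Krtap28 (55.9), and the members lower or higher. Shifts are read against counting intervals, and the cause of each was not tested.

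With the cells of high doublet scores kept, the shares were 1.30 in GelMA and 0.560 in untreated, 14.1 in cuticle and 1.84 in cortex, and 0 members were lower in GelMA than in untreated. With Krtap genes in the clustering they were 1.42 in GelMA, 10.2 in cuticle, 5.24 in cortex, 16.7 for high glycine-tyrosine and 57.0 for the 3 subfamilies, again with 0 lower. Leiden resolution 2 gave 12.4 in cuticle and 3.07 in cortex, and 0 lower. A class set per cell from the marker lists gave 0.0107 in AN-GelMA, 1.38 in GelMA, 0.840 in untreated, 9.68 in cuticle, 4.86 in cortex and 55.2 for the 3 subfamilies. It left 2 members lower in GelMA than in untreated and 36 AN-GelMA cells, too few to compare. A minimum of 1000 UMIs gave 1.32 in GelMA, 9.27 in cuticle, 5.52 in cortex, 16.5 and 57.0. Without Krtap and hair keratins in the total the values were 1.39 in GelMA, 14.1 in cuticle and 2.11 in cortex.

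Thinned to 500 UMIs per cell, which limits the weight of the deepest cells, the shares were 0.838 in GelMA, 0.397 in untreated, 8.03 in cuticle, 1.90 in cortex, 30.3 for high glycine-tyrosine and 30.8 for the 3 subfamilies. Then 18 members were lower in AN-GelMA than in GelMA (36 before), 3 lower in GelMA than in untreated (1 before) and 7 lower in AN-GelMA than in untreated (12 before). A minimum of 100 UMIs per member also left 7 of those 12.

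The next alternatives were chosen after seeing the data. With no limits on genes and mitochondrial UMIs the values were 1.43 in GelMA, 12.8 in cuticle, 2.34 in cortex, 16.7 and 56.9. Without the highest cell of each library they were 0.893 in GelMA, 0.0290 in untreated, 7.47 in cuticle, 26.1 for high glycine-tyrosine and 38.5 for the 3 subfamilies, with 0 members lower in GelMA than in untreated and 1 lower in AN-GelMA than in untreated. Without the cluster led by Duxf3, Krtap CPM over all cells was 11.4 in AN-GelMA (49.1 with it) and 215 in untreated (288 with it). Of the members compared between cuticle and cortex, 40 were higher and 5 lower by cluster, 15 and 29 by the cells' own keratins, 7 and 37 without the highest cell, and 10 and 20 at 10 to 99 Krtap UMIs. Of 7 members followed singly, 3 changed direction by the cells' own keratins without that cell: the log2 ratio of Krtap28-13 was -0.75 (9.004 by cluster), of Krtap10-10 -1.09 (8.89) and of Krtap5-5 -0.89 (10.18). The cortex-marked cell with the most Krtap UMIs stayed in for these 3. Of the values set against the first analysis, 84 stayed within the limits used and 77 moved, most of them among those just listed.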
